A study of Homo sapiens with 12 samples.

Results

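The MYC, MAX and MXD network is a group of transcription factors that share a basic helix-loop-helix leucine zipper, and 10 of its genes (MYC, MYCN, MYCL, MAX, MXD1, MXD3, MXD4, MXI1, MNT and MGA) were examined across 4 siRNA groups. They are the entries of the deposited count table whose Ensembl identifier, without its version, maps to one of these symbols. All 10 were found among the 70116 genes of the table. Of these, 9 were among the 16197 genes with enough counts for testing, and MYCN was not.

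The cells were MiaPaCa-2, an established human pancreatic cancer line, and every group was transfected with an siRNA, a short duplex that directs the breakdown of a matching transcript. The 4 groups of 3 libraries were siControl, siSLC25A1 (the mitochondrial citrate carrier), siACLY (ATP citrate lyase, which makes cytosolic acetyl-CoA from citrate) and siACO1 (cytosolic aconitase, which converts citrate to isocitrate and can bind iron-responsive elements). The title of the series places these knockdowns in a question about cytosolic citrate and ferroptosis under nutrient stress. The labels give neither the siRNA sequences, the dose, the time after transfection nor the nutrients at harvest, and all samples come from a single cell line. They also do not say whether replicates were separate cultures, so the p-values may measure only technical spread between these samples.

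MYC proteins bind DNA as heterodimers with MAX at a short palindrome called the E-box and recruit acetyltransferase complexes that favour transcription, especially of genes for ribosome assembly and growth metabolism. The MXD proteins, MXI1 (also an MXD protein) and MNT compete for MAX and for the same sites, and bring the SIN3 corepressor with its histone deacetylases. MGA also dimerises with MAX and sits in a Polycomb complex, PRC1.6. The transcript level measured here is not a measure of the MYC protein, which is short-lived and was not measured.

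RefSeq (GRCh38.p14) promoter windows, from 250 bases before to 50 after a transcript's start, were found for 9 of the 10 genes, MYC having no entry. The letters CACGTG, the canonical E-box, which reads the same on both strands, were present in the windows of 2 of the 9 genes, MXD4 and MNT. Of all 35116 RefSeq promoter windows 7.26% held these letters, and of the 27305 genes with a window 8.77% had them. The 250 bases before the start of MXD4 (chr4:2262110-2262359, minus strand) and of MNT (chr17:2401061-2401310, minus strand) are shown because they place an E-box before 2 of the network's own antagonists. They are written 5′ to 3′ in the direction of the gene, with the E-box in capitals.
MXD4: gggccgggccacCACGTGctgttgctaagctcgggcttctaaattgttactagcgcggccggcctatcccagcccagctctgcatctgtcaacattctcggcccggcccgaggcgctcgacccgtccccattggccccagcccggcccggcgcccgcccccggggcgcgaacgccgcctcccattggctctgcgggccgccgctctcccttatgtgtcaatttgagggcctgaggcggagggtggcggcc
MNT: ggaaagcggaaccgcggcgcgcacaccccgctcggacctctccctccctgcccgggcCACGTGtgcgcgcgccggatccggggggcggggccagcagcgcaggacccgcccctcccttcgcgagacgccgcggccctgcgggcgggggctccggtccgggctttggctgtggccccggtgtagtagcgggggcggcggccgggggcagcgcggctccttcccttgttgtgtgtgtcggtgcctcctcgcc
The E-box began 238 bases before the start in MXD4 and 193 bases before it in MNT. A match is a description of the letters in this window and does not show that a factor binds there.

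Libraries held 24159424 to 43792811 counts. The siRNAs lowered their targets to 8.78% of control for SLC25A1, 7.25% for ACLY and 3.75% for ACO1, each in the group labelled with it. The epithelial keratins KRT8, KRT18 and KRT19 were present in every library, while the epithelial adhesion genes EPCAM and CDH1 were at or below 0.0776 CPM (read counts scaled to a common library size) and the mesenchymal filament gene VIM was at 3472 to 4813 CPM. Of the markers of other cell types, those of acinar and islet cells, the leukocyte genes PTPRC and CD3E and the fibroblast gene LUM had no counts in any library. The leukocyte list was above 0 through LYZ alone, which was read in every library, at 0.642 to 1.14 CPM in siControl, 1.65 to 1.95 in siSLC25A1, 1.73 to 2.24 in siACLY and 1.86 to 2.08 in siACO1. The endothelial genes PECAM1 and VWF summed to at most 0.360 CPM and the fibroblast genes COL1A1 and DCN to at most 0.250 CPM in any library. The 3 keratins, EPCAM and CDH1 together came to 3607 to 3744 CPM in siControl, 3125 to 3453 in siSLC25A1, 3824 to 3922 in siACLY and 2066 to 2181 in siACO1. KRT8 and KRT18 made up most of this sum, and KRT19 had means of 88.5, 121, 141 and 52.0 CPM in the same order. VIM was at 3504 to 3653, 3816 to 3893, 4270 to 4813 and 3472 to 3841 CPM in the same order. The part of these markers in the results on the network was not tested. The siACO1 replicate 3 library stood apart from its replicates: the longer a gene's exons, the lower it read relative to them (Spearman's rho of -0.23 over 15384 genes that are not independent of each other). Each library was compared with the mean of the other 2 of its group. Replicate 3 therefore also enters the values of siACO1 replicates 1 and 2, which were 0.13 and 0.17. The libraries of the other groups ran from -0.10 to 0.04. Calls of members in siACO1 that changed without siACO1 replicate 3 are given at those members.

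Levels below are CPM after TMM scaling (trimmed mean of M values), and fold changes, standard errors (SE), 95% intervals and adjusted p-values come from edgeR's quasi-likelihood test with Benjamini-Hochberg adjustment over all tested genes. The word called marks an adjusted p below 0.05. Counts are relative to each library's total and are read from all its cells in bulk, so fewer cells expressing a gene and less of its RNA per cell cannot be told apart. The 3 comparisons with siControl share the same control libraries.

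Per kilobase of exon, MYC was by far the most abundant of the tested network transcripts in control cells. It stood at 101.9 ± 3.31 CPM per kb (SD, n = 3), above 97.7% of the 15384 tested genes with a known length. MAX, the shared dimer partner, followed at 10.3 ± 0.400 CPM per kb, and MXD4, at 7.92 ± 0.365, was the most abundant antagonist. MXI1 was at 4.39 ± 0.232, MNT at 3.17 ± 0.126, MXD3 at 3.03 ± 0.232 and MGA at 2.88 ± 0.217 CPM per kb. MNT, MXD3 and MGA did not differ from one another beyond their spread. MXD1 was lower, at 1.72 ± 0.0936 CPM per kb, and MYCL the lowest, at 0.313 ± 0.0233, above 14.6% of the genes. Exon lengths are those of GENCODE 29 and may differ from the annotation behind the counts.

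**Figure D1:**
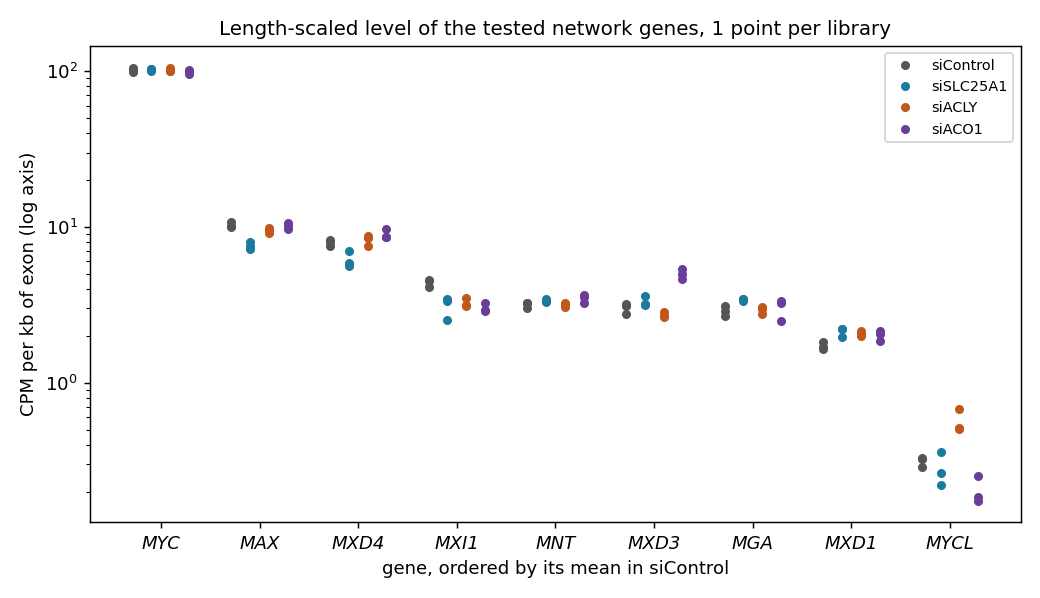
Level per kilobase of exon (CPM per kb, log axis) of the 9 tested network genes, with 1 point per library coloured by siRNA group and genes ordered by their control mean. MYC lies near 102 CPM per kb in every group and MYCL, at the other end, lies below 1 CPM per kb.

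The 3 knockdowns left MYC transcript within a few percent of control and moved other members. MXI1 fell and MXD1 rose in each knockdown. MAX and MXD4 fell in siSLC25A1, MXD3 rose in siACO1, and MYCL rose in siACLY and fell in siACO1. The calls of MXD1, and that of MYCL in siACO1, were lost in some alternative settings, as given below. In siSLC25A1 against siControl 4 of the 9 tested members were called, 1 higher and 3 lower, where 19.6% of all tested genes were called. In siACLY 3 of 9 were called, 2 higher and 1 lower, against 36.7% of all genes. In siACO1 4 of 9 were called, 2 higher and 2 lower, against 37.1%, of which 17.8% were higher and 19.3% lower. The median log2 fold change of the 9 members was 0.00, 0.00 and 0.07 in siSLC25A1, siACLY and siACO1, and that of all tested genes was 0.00, 0.01 and 0.01. With only 9 genes, these shares describe the members and do not set them apart from other genes.

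**Figure D2:**
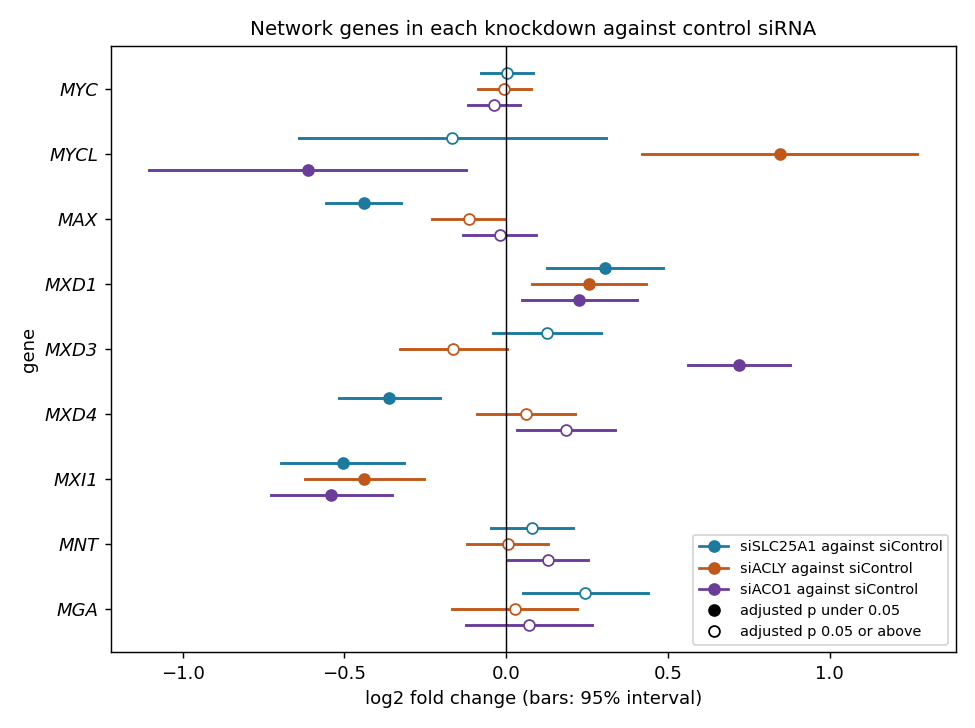
Log2 fold change of each tested network gene in siSLC25A1, siACLY and siACO1 against siControl (x axis), with bars for the 95% interval and filled points for an adjusted p under 0.05. MYC sits at 0 in each comparison with short bars, MXI1 lies left of 0 and MXD1 right of 0 in each, and MAX, MXD3 and MXD4 are each filled in 1 comparison.

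Among the activators, MYC (ENSG00000136997.22), the broadly expressed member, was read at 316, 297 and 304 CPM in the siControl libraries and at 311, 300 and 308 CPM in siSLC25A1. It was at 312, 301 and 300 CPM in siACLY and at 301, 286 and 307 CPM in siACO1. The ranges of all 4 groups overlapped. The log2 fold change was 0.00 in siSLC25A1 (95% interval -0.08 to 0.08, edgeR adjusted p 0.972), -0.01 in siACLY (-0.09 to 0.08, adjusted p 0.936) and -0.04 in siACO1 (-0.12 to 0.04, adjusted p 0.50). Differences larger than about 0.12 on the log2 scale in either direction therefore lie outside these intervals. Between knockdowns its largest log2 difference was 0.04, for siSLC25A1 over siACO1 (95% interval -0.04 to 0.12, adjusted p 0.448).

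MYCL (ENSG00000116990.12; chromosome 1, 39895426 to 39902256, minus strand), the L-MYC paralogue, rested on 22 to 116 counts per library. It was at 1.45, 1.66 and 1.64 CPM in siControl, 1.12, 1.33 and 1.82 in siSLC25A1, 2.61, 3.45 and 2.54 in siACLY and 0.885, 1.27 and 0.931 in siACO1. All 3 siACLY libraries were above, and all 3 siACO1 libraries below, the control range, while siSLC25A1 overlapped it. MYCL rose to 180% of control in siACLY (log2 fold change 0.85, SE 0.21, edgeR adjusted p 0.00185). It fell to 65.4% in siACO1 (log2 fold change -0.61, SE 0.24, adjusted p 0.0441), and that call was lost in 9 of 13 alternative settings, the fits without any 1 siControl library, without siACO1 replicate 1 and without siACO1 replicate 3 among them (log2 fold change -0.80 to -0.53 over the 13, highest adjusted p 0.131). The direct comparison of siACLY with siACO1 gave a log2 difference of 1.46 (SE 0.23, adjusted p 4.62e-06). In siSLC25A1 the log2 fold change was -0.17, with an interval of -0.64 to 0.31 that shows how loosely these counts fix it (adjusted p 0.684).

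MYCN (ENSG00000134323.13; chromosome 2, 15940564 to 15947007, plus strand), the N-MYC gene of neural and neuroendocrine tissue, had 0 counts in all 12 libraries. The upper limit that 0 counts allow, 3 counts, corresponds to 0.0674 to 0.124 CPM depending on the library, for counting error only.

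MAX (ENSG00000125952.21; chromosome 14, 65006174 to 65102695, minus strand), the shared dimer partner, fell in siSLC25A1. It was read at 47.4, 44 and 45.1 CPM in siControl and at 32.1, 35.4 and 33.3 CPM in siSLC25A1. The values were 40.6, 42.2 and 43.4 CPM in siACLY and 44.6, 43.2 and 46.9 CPM in siACO1. The siSLC25A1 libraries lay below every library of the other 3 groups. MAX stood at 73.7% of control in siSLC25A1 (log2 fold change -0.44, SE 0.06, edgeR adjusted p 1.09e-06), and it stayed called in all 13 alternative settings (-0.48 to -0.41). The summed epithelial markers, mostly KRT8 and KRT18, were lower in siSLC25A1 than in siControl, at 3125 to 3453 CPM against 3607 to 3744. KRT19 went the other way, with means of 88.5 CPM in siControl and 121 in siSLC25A1. VIM was higher in siSLC25A1, at 3816 to 3893 CPM against 3504 to 3653. The part of these markers in the falls of MAX and MXD4 was not tested. In siACLY the log2 fold change was -0.12 (95% interval -0.23 to -0.00, adjusted p 0.102), called only with those 2 groups in the fit (adjusted p 0.0449). In siACO1 it was -0.02 (-0.13 to 0.09, adjusted p 0.823). MAX was also lower in siSLC25A1 than in siACLY (log2 difference -0.32, adjusted p 5.15e-05) and than in siACO1 (-0.42, adjusted p 6.46e-07).

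**Figure D3:**
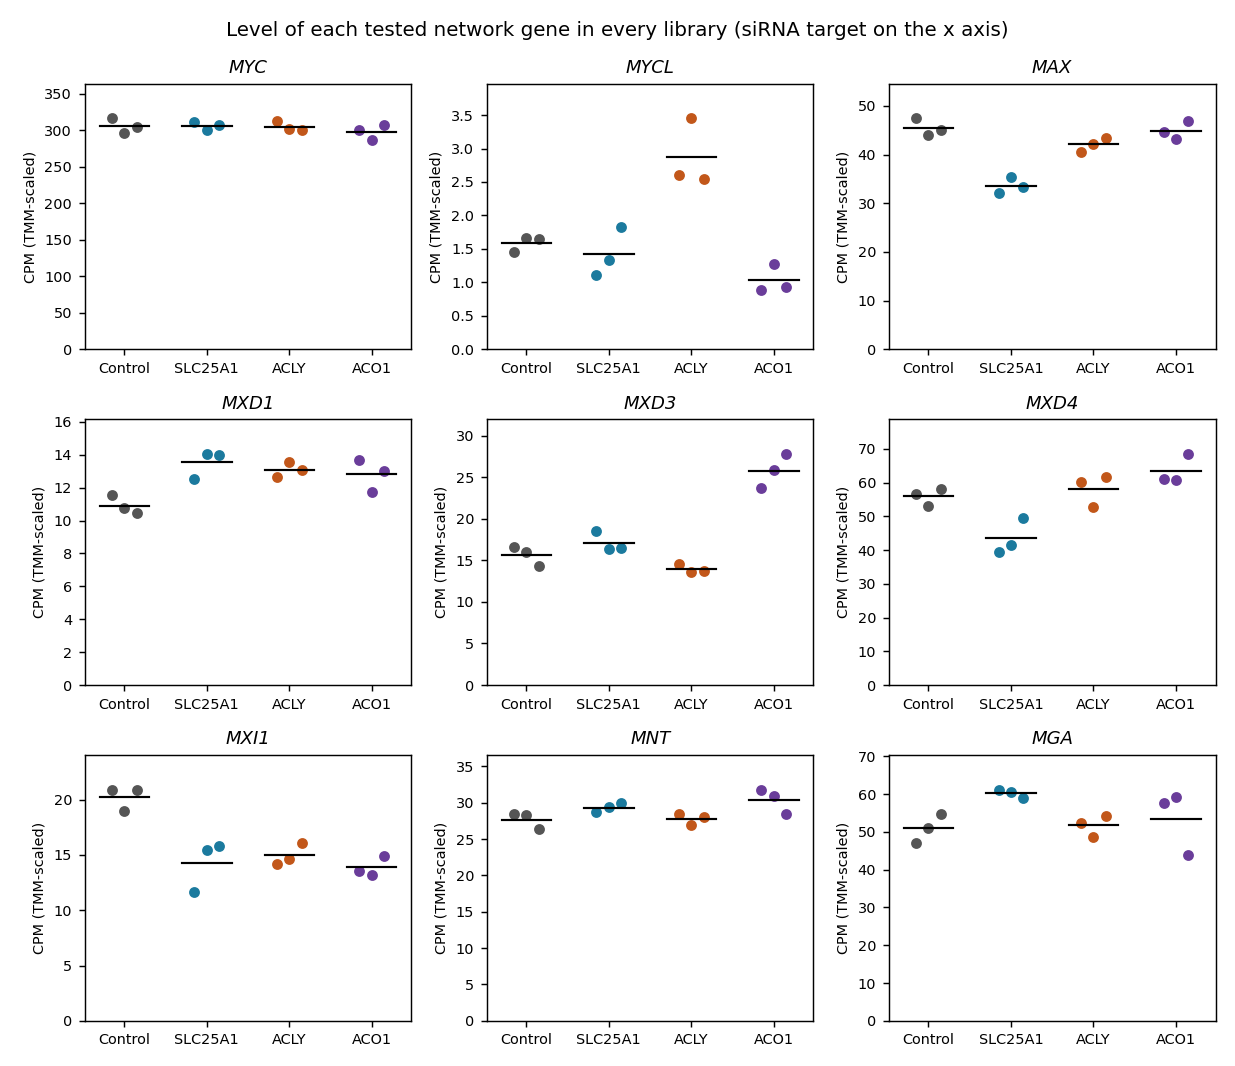
Level of each tested network gene in TMM-scaled CPM (y axes start at 0) by siRNA target, with 1 point per library and a line at the group mean. MAX and MXD4 are lowest in the SLC25A1 knockdown, MXD3 is highest in the ACO1 knockdown, and the MYC points overlap across the 4 groups.

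MXI1 (ENSG00000119950.21; chromosome 10, 110207605 to 110287365, plus strand), an antagonist that binds SIN3, was lower than control in each knockdown. The siControl libraries held 20.9, 19 and 20.8 CPM, and the siSLC25A1 libraries 11.6, 15.5 and 15.8. It was at 14.2, 14.6 and 16.1 CPM in siACLY and at 13.6, 13.2 and 14.9 CPM in siACO1. All 9 knockdown libraries lay below the 3 control libraries, and siSLC25A1 replicate 1 was the lowest. MXI1 fell to 70.5% of control in siSLC25A1 (log2 fold change -0.51, SE 0.09, edgeR adjusted p 0.000166), to 73.8% in siACLY (-0.44, SE 0.09, adjusted p 0.000306) and to 68.8% in siACO1 (-0.54, SE 0.09, adjusted p 2.45e-05). These calls held in all 13 alternative settings of each comparison, with log2 fold changes of -0.59 to -0.37, -0.49 to -0.39 and -0.60 to -0.49 in that order. The 3 comparisons share their controls, so the 3 falls are not independent. Between knockdowns the log2 differences were -0.07 (siSLC25A1 over siACLY, 95% interval -0.26 to 0.13), 0.03 (siSLC25A1 over siACO1, -0.16 to 0.23) and 0.10 (siACLY over siACO1, -0.09 to 0.30), with edgeR adjusted p-values of 0.413 or above.

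MXD1 (ENSG00000059728.11; chromosome 2, 69897688 to 69942945, plus strand), an antagonist known for its rise when cells leave the cycle and differentiate, was higher than control in each knockdown by a smaller margin. It was at 11.6, 10.7 and 10.4 CPM in siControl, 12.6, 14 and 14 in siSLC25A1, 12.7, 13.5 and 13.1 in siACLY and 13.7, 11.7 and 13 in siACO1. Every knockdown library was above the control range, though siACO1 replicate 2 stood just above the highest control. The log2 fold changes were 0.31 (SE 0.09, edgeR adjusted p 0.0126), 0.26 (SE 0.09, adjusted p 0.0196) and 0.23 (SE 0.09, adjusted p 0.0413) in siSLC25A1, siACLY and siACO1. These calls were near the threshold. That in siSLC25A1 was lost without siControl replicate 3 or siSLC25A1 replicate 2 or 3 (highest adjusted p 0.0594). In siACLY the adjusted p rose over the threshold when siControl replicate 2 or 3, or siACLY replicate 2 or 3, was left out (highest adjusted p 0.0870). That in siACO1 was lost in 7 of 13 settings (highest adjusted p 0.171), namely with DESeq2, without a filter, with only those 2 groups, and without siControl replicate 2 or 3 or siACO1 replicate 1 or 3.

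MXD3 (ENSG00000213347.11; chromosome 5, 177301461 to 177312757, minus strand), an antagonist known for expression in S phase, rose in siACO1. Its level was 16.6, 16 and 14.3 CPM in siControl, 18.5, 16.3 and 16.5 in siSLC25A1 and 14.6, 13.5 and 13.7 in siACLY. In siACO1 it was 23.7, 25.8 and 27.8 CPM, above all 9 libraries of the other groups. It reached 165% of control there (log2 fold change 0.72, SE 0.08, edgeR adjusted p 1.46e-08) and was called in all 13 settings, with 0.66 as the lowest value. Against siControl the log2 fold change was 0.13 in siSLC25A1 (adjusted p 0.302) and -0.16 in siACLY (adjusted p 0.121). The siACO1 level exceeded that of siSLC25A1 and of siACLY in the direct comparisons (log2 differences of -0.59 and -0.88 for those groups relative to siACO1, adjusted p 4.30e-07 and 2.68e-10). MXD3 was also higher in siSLC25A1 than in siACLY (0.29, adjusted p 0.00709), a call lost without siSLC25A1 replicate 1 (adjusted p 0.0600). The count of MXD3 is uncertain, because 40.4% of its exon bases overlap neighbours, PRELID1 on the opposite strand and RAB24 on the same strand, and whether counting used the strand is not given in the sources used here. These neighbours, looked up after the values of MXD3 were seen, had log2 fold changes of -0.10 (PRELID1, 212 to 198 CPM, adjusted p 0.121) and 0.12 (RAB24, 8.15 to 8.82 CPM, adjusted p 0.456) in siACO1. The summed epithelial markers were also lower in siACO1, at 2066 to 2181 CPM against 3607 to 3744 in siControl, and their part in the siACO1 results was not tested.

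MXD4 (ENSG00000123933.17; chromosome 4, 2247432 to 2262294, minus strand), the antagonist with an E-box in the sequence shown above, fell in siSLC25A1. It was read at 56.6, 53.1 and 58.1 CPM in siControl and at 39.6, 41.6 and 49.6 CPM in siSLC25A1. The level was 60.3, 52.8 and 61.7 CPM in siACLY and 61.2, 60.8 and 68.5 CPM in siACO1. All siSLC25A1 libraries were below every library of the other groups, and all siACO1 libraries were above the control range. MXD4 stood at 77.9% of control in siSLC25A1 (log2 fold change -0.36, SE 0.08, edgeR adjusted p 0.00147), called in all 13 settings. The direct comparisons with siACLY (-0.42, adjusted p 0.000159) and siACO1 (-0.55, adjusted p 5.06e-06) were past the threshold too. In siACO1 it missed the threshold (log2 fold change 0.18, 95% interval 0.03 to 0.34, adjusted p 0.0523) and was past it in 6 of 13 settings, library totals in place of TMM among them, where it was 0.23. In siACLY the log2 fold change was 0.06 (95% interval -0.09 to 0.21, adjusted p 0.548).

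MNT (ENSG00000070444.15; chromosome 17, 2384060 to 2401118, minus strand), the broadly expressed antagonist and the other gene with an E-box shown above, was not called in any of the 3 comparisons. Its levels ran from 26.4 to 28.4 CPM in siControl, 28.7 to 29.9 in siSLC25A1, 26.9 to 28.4 in siACLY and 28.4 to 31.8 in siACO1. The siACO1 and siSLC25A1 libraries were above the control range by small margins. The log2 fold changes were 0.08 (95% interval -0.05 to 0.21, edgeR adjusted p 0.400), 0.00 (-0.12 to 0.13, adjusted p 0.962) and 0.13 (0.01 to 0.25, adjusted p 0.0960). The value in siACO1 was past the threshold without siACO1 replicate 3 and with library totals, where it was 0.18 (adjusted p 0.0267).

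MGA (ENSG00000174197.19; chromosome 15, 41621224 to 41773081, plus strand) encodes a very large protein with a second, T-box DNA-binding domain, and its exons span 17.7 kb, the longest of the members. It was at 47.0, 51.1 and 54.6 CPM in siControl, 61.1, 60.6 and 58.9 in siSLC25A1, 52.5, 48.6 and 54.2 in siACLY and 57.5, 59.1 and 43.8 in siACO1. The siSLC25A1 libraries were above the control range, and siACO1 replicate 3 was the lowest of all 12. The log2 fold change in siSLC25A1 was 0.24 (95% interval 0.05 to 0.44, edgeR adjusted p 0.0745), which missed the threshold and passed it with DESeq2, without a filter and with only those 2 groups (lowest adjusted p 0.000524). In siACO1 it was 0.07 (95% interval -0.12 to 0.26, adjusted p 0.587), and without siACO1 replicate 3 it was 0.20 and called (adjusted p 0.00462).

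Some members therefore differed between the knockdowns themselves. In siSLC25A1 against siACLY 4 of 9 members were called, where 33.8% of all genes were. In siSLC25A1 against siACO1 3 of 9 were called, all lower in siSLC25A1, where 42.1% of all genes were called and 20.3% were lower. In siACLY against siACO1 2 of 9 were called, 1 higher and 1 lower, where 42.1% of all genes were called, 21.4% higher and 20.7% lower. MXD1, MXI1 and MNT passed the threshold in none of the 3 comparisons between knockdowns, and neither did MYC and MGA, though MGA and MNT passed it in some of the alternative settings. A value that misses the threshold does not show that the groups were equal.

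The balance of the network was described by sums of length-scaled levels, with no test. The activators summed to 102 ± 3.28 CPM per kb in siControl, 102 ± 1.83 in siSLC25A1, 102 ± 2.22 in siACLY and 99.5 ± 3.60 in siACO1 (SD, n = 3), nearly all of it MYC. The 6 antagonists summed to 23.1 ± 0.484, 21.5 ± 1.09, 22.4 ± 1.03 and 25.5 ± 0.503 CPM per kb in the same order. The ratio of MYC to MAX was 9.84 to 9.97 in the siControl libraries and 9.67 to 9.96 in siACO1, and higher, at 12.5 to 14.3, in siSLC25A1, where MAX was low. It was 10.2 to 11.4 in siACLY. Activators to antagonists stood at 4.37 to 4.50 in siControl, 4.55 to 5.08 in siSLC25A1, 4.33 to 4.75 in siACLY and 3.79 to 3.97 in siACO1. Only the siACLY range overlapped that of siControl in this ratio. Within the antagonist sum, MXD4 made up 34.3% in siControl and 28.7% in siSLC25A1. MXI1 made up 19% in siControl, 14.4% in siSLC25A1, 14.5% in siACLY and 11.8% in siACO1. MXD3 went from 13.1% in siControl to 19.6% in siACO1. Within the siACO1 sum, which was 25.5 against 23.1 CPM per kb in siControl, MXD3 went from 3.03 to 5.00 CPM per kb, and its count is uncertain, as given above.

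Genes around the network were read from 9 lists with 156 different genes in the table, of which 144 were tested. Among genes for ribosome biogenesis, a process that MYC is known to drive, 26 of the 29 tested were lower in siACO1 and none was higher, where 19.3% of all genes were lower. All 29 log2 fold changes were below 0 in edgeR, and DESeq2 likewise called 26 lower and 0 higher. Their median log2 fold change was -0.27, against 0.01 for all tested genes, and over 13 settings 25 to 27 were lower and the median ran from -0.29 to -0.22. The falls were mostly small, since 1 of the 26, PPAN, exceeded 0.5 on the log2 scale. PPAN, a factor of the large ribosomal subunit, shares 59.8% of its exon bases with its neighbour P2RY11 and their readthrough gene, so its count is uncertain. It went from 25.0 ± 0.517 to 14.1 ± 0.842 CPM (SD, n = 3; log2 fold change -0.83, SE 0.07, edgeR adjusted p 3.23e-10). UTP20, of the small subunit processome, went from 81.2 ± 1.59 to 60.0 ± 4.08 CPM (log2 fold change -0.44, adjusted p 3.47e-08). The epithelial marker sum that was lower in siACO1 is given above, and its part in these falls was not tested. The siACO1 libraries of MYC itself overlapped those of control.

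In siACLY 11 of the 29 ribosome biogenesis genes were lower and 2 higher (median -0.07), where 18.3% of all genes were lower and 18.4% higher. With library totals in place of TMM 7 were lower and 5 higher, without siControl replicate 1 the number lower was also 7, and without siControl replicate 2 the number higher was 1. VIM was higher in siACLY than in siControl (4270 to 4813 CPM against 3504 to 3653), and its part in these falls was not tested. UBTF, the RNA polymerase I activator, had a log2 fold change of -0.62 in siACLY (adjusted p 2.05e-12) and PPAN of -0.51 (adjusted p 1.53e-06). In siSLC25A1 3 were lower and 4 higher (median 0.00), where 9.27% of all genes were lower and 10.3% higher. The number higher was 1 without a filter or without siControl replicate 2, and 2 without siControl replicate 1 or 3 or siSLC25A1 replicate 1 or 3, and the number lower was 5 with only those 2 groups in the fit. UTP20 was 0.27 higher there on the log2 scale (adjusted p 0.000104) and UBTF fell by 0.34 (adjusted p 5.57e-07). The direct comparison of siSLC25A1 with siACO1 called 26 of the 29 higher in siSLC25A1 and 0 lower, with a median of 0.27, where 21.8% of all genes were higher.

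Of the 34 tested MYC targets in metabolism and growth, 17 were lower and 1 higher in siACO1 (median -0.13), 15 lower and 5 higher in siACLY (-0.09), and 3 lower and 8 higher in siSLC25A1 (0.04). Of all genes, 19.3% were lower and 17.8% higher in siACO1, 18.3% and 18.4% in siACLY, and 9.27% and 10.3% in siSLC25A1. The 5 higher in siACLY became 2 without siControl replicate 2, and 3 with DESeq2, without a filter, or without siControl replicate 1 or 3 or siACLY replicate 1 or 2. The 3 lower in siSLC25A1 became 5 without siSLC25A1 replicate 1. SLC7A5, the large neutral amino acid transporter, fell in siACO1 from 1351 ± 65.8 to 823 ± 7.95 CPM (SD, n = 3; log2 fold change -0.71, SE 0.04, edgeR adjusted p 6.27e-14). HK2, which phosphorylates glucose in the first step of glycolysis, moved in opposite directions, from 169 ± 7.39 CPM in siControl to 230 ± 6.57 in siSLC25A1 (0.45, adjusted p 1.50e-08) and 113 ± 5.88 in siACO1 (-0.58, adjusted p 3.74e-11). CDK4, a kinase of the G1 phase, was the 1 gene called higher in siACO1 (0.18, adjusted p 0.000781), with a count that is uncertain because 43.2% of its exon bases overlap TSPAN31 on the opposite strand. In siACLY the largest falls were those of E2F1, a transcription factor of S-phase entry (-0.54, adjusted p 1.87e-08), and CDC25A, a phosphatase that activates cyclin-dependent kinases (-0.45, adjusted p 7.88e-07). The largest called rises in siACLY were those of MTHFD2 and CTPS1, and the highest log2 fold change on the list there was 1.02. The count of MTHFD2 is uncertain, since 33.2% of its exon bases overlap genes on the opposite strand. With library totals, 14 rather than 17 were lower and 3 rather than 1 higher in siACO1, and 2 were higher there without a filter or with only those 2 groups.

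**Figure D4:**
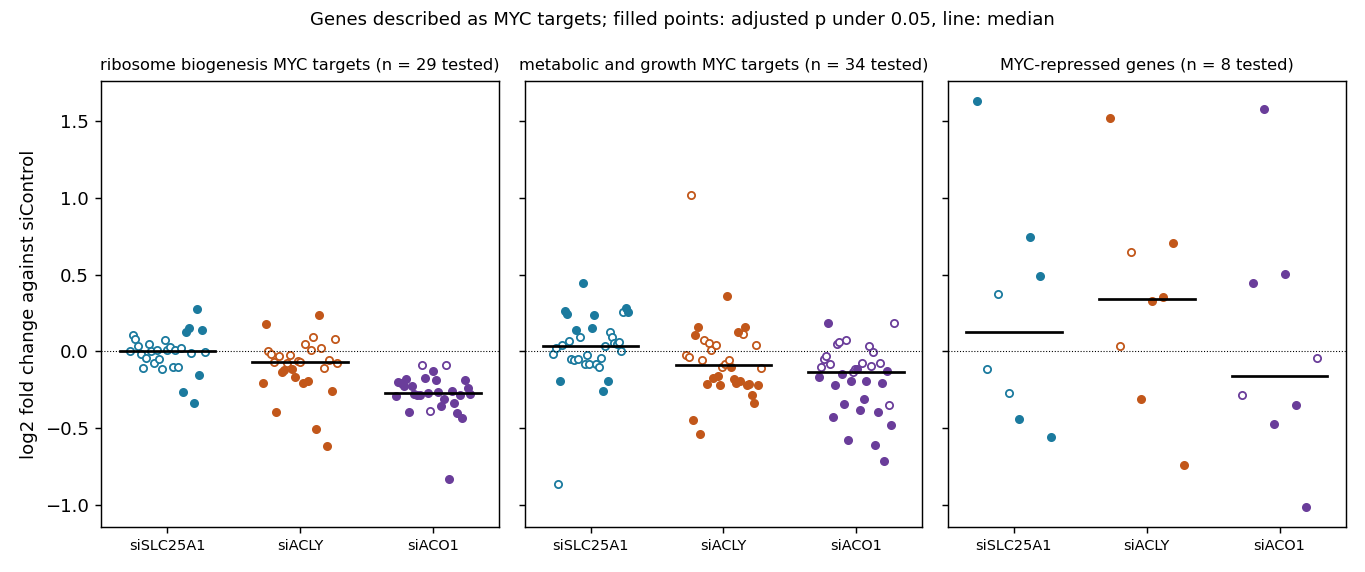
Log2 fold change against siControl (y axis) of each tested gene on the 3 lists of genes described as MYC targets, by knockdown, with filled points for an adjusted p under 0.05 and a line at the median. In siACO1 all 29 ribosome biogenesis points lie below 0, while in siSLC25A1 they are spread around it.

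The canonical E-box was in the promoter window of 20 of the 33 metabolic and growth genes with a RefSeq entry (60.6%) and of 11 of the 25 ribosome biogenesis genes (44%), against 8.77% of all genes. Both lists were drawn up from genes already described as MYC targets, so a higher share may follow from that choice. It describes the lists and is not a result of the knockdowns. The following 26-base stretches (GRCh38.p14, direction of the gene, CACGTG in capitals) come from 5 genes described here. These genes were picked because they carry the same letters and differed in direction, so that difference is not a result about the E-box. HK2 and CDK4 hold further E-boxes in their windows that are not shown.
SLC7A5, chr16:87869622-87869647, minus strand: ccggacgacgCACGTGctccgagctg
HK2, chr2:74834966-74834991, plus strand: ttgctgcgccCACGTGggagggagcc
PPAT, chr4:56435782-56435807, minus strand: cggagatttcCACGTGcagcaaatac
CDK4, chr12:57752396-57752421, minus strand: gggtggcggtCACGTGcccagaacgt
IMP4, chr2:130342684-130342709, plus strand: ggtcctaagtCACGTGtgacattctg
In siACO1 SLC7A5 and HK2 fell, and IMP4, of the small subunit processome, fell by 0.22 on the log2 scale (edgeR adjusted p 0.000270). CDK4, whose count is uncertain as given above, rose there. PPAT, the first enzyme of purine synthesis, fell in siSLC25A1 (log2 fold change -0.26, adjusted p 9.10e-05), where HK2 rose.

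Genes that MYC is known to repress, often through MIZ1, did not share a direction. Of the 8 tested, 3 were higher and 2 lower in siSLC25A1, 4 and 2 in siACLY, and 3 and 3 in siACO1, with medians of 0.13, 0.34 and -0.16, where 19.6%, 36.7% and 37.1% of all genes were called. The 2 lower in siSLC25A1 became 4 with only those 2 groups in the fit, and the 2 lower in siACLY became 1 when siControl replicate 1 or siACLY replicate 3 was left out. The median in siSLC25A1 ran from -0.20 to 0.20 over the settings. CDKN1A, the p21 inhibitor of cyclin-dependent kinases, rose from 1.27 ± 0.245 CPM to 3.91 ± 0.335 in siSLC25A1 (SD, n = 3; log2 fold change 1.63, edgeR adjusted p 1.46e-07) and to 3.60 ± 0.445 in siACLY (1.52, adjusted p 1.43e-07). It was at 1.03 ± 0.0698 CPM in siACO1 (log2 fold change -0.29, adjusted p 0.342). CDKN1C, another inhibitor of these kinases, had the largest called rise of the list in siACO1. The highest log2 fold change on the list there was 1.58. NDRG1, a stress and differentiation gene, rose in siACLY (0.71, adjusted p 1.32e-07) and fell in siACO1 (-1.01, adjusted p 2.40e-09). CLU, a secreted chaperone, fell in siSLC25A1 (-0.44, adjusted p 2.31e-08) and rose in siACO1 (0.50, adjusted p 3.22e-10).

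Partners of the antagonists were read from another pair of lists. Of 13 tested genes of the MGA complex PRC1.6, 9 were lower and 1 higher in siACLY (median -0.20), and of 16 SIN3 corepressor genes 8 were lower and 0 higher (median -0.16); HDAC1 and HDAC2 are on both lists. Of all genes 18.3% were lower and 18.4% higher in siACLY, 19.3% and 17.8% in siACO1, and 9.27% and 10.3% in siSLC25A1. Leaving out siControl replicate 2 or siACLY replicate 1 ended the 1 call of a higher PRC1.6 gene in siACLY. L3MBTL2, a core subunit of PRC1.6, fell in siACLY (log2 fold change -0.47, SE 0.06, edgeR adjusted p 2.00e-07). HDAC1, the shared deacetylase, fell by 0.31 in siACLY (adjusted p 1.40e-07) and by 0.23 in siSLC25A1 (adjusted p 2.93e-05). In siSLC25A1 2 PRC1.6 genes were lower and 1 higher, the latter lost without a filter, siControl replicate 1 or 3, or siSLC25A1 replicate 1 or 2. TFDP1, the dimer partner of E2F factors, fell from 207 ± 0.859 to 136.5 ± 7.00 CPM (-0.60, adjusted p 1.15e-11). In siACO1 4 were lower and 1, HDAC1, was higher. The number lower was 2 with library totals or without siACO1 replicate 1, and the number higher was 3 with library totals and 0 without a filter or siControl replicate 3. PCGF6, the subunit that defines PRC1.6, fell by 0.39 (adjusted p 1.22e-05). SIN3 genes in siACO1 were 5 higher and 2 lower, a split of 6 and 0 with library totals, and in siSLC25A1 1 higher and 3 lower. The number higher in siACO1 was 2 with DESeq2, without a filter or without any 1 siControl library, and 3 without siACO1 replicate 1. The 2 lower there became 0 without siControl replicate 1 or 3 or siACO1 replicate 3, and 1 without siControl replicate 2 or siACO1 replicate 1 or 2.

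Of 14 tested cofactors of MYC, 2 were called in siSLC25A1, 5 in siACLY and 4 in siACO1, where 19.6%, 36.7% and 37.1% of all genes were called. The 2 in siSLC25A1, both lower, became 0 without siSLC25A1 replicate 2 and 1 without any 1 of the other 5 libraries of the comparison, and with only those 2 groups in the fit 2 were called higher as well. The 1 higher in siACO1 was lost with DESeq2 and without any 1 siControl library or siACO1 replicate 1. BIN1, a MYC-binding tumour suppressor, fell in siACLY (log2 fold change -0.55, edgeR adjusted p 2.18e-10) and in siSLC25A1 (-0.18, adjusted p 0.00514). It was the 1 cofactor called higher in siACO1. KAT5, the acetyltransferase TIP60, is named by the same rule and had log2 fold changes of 0.30 in siACLY and -0.41 in siACO1, both called but uncertain, since 38.6% of its exon bases overlap RNASEH2C on the opposite strand. Of 17 genes of MYC protein turnover, 3, 7 and 8 were called in siSLC25A1, siACLY and siACO1, with 2 higher and 1 lower, 1 and 6, and 3 and 5, against the same shares of all genes. The 6 lower in siACLY became 2 with library totals and 3 without siControl replicate 1 or 3, and the 1 higher was lost without siControl replicate 1 or 2 or siACLY replicate 2 or 3. In siSLC25A1 the 2 higher became 4 with only those 2 groups and 1 without siControl replicate 1 or 2 or siSLC25A1 replicate 3, and the 1 lower was lost without siControl replicate 2 or siSLC25A1 replicate 1 or 2. In siACO1 SKP2 (0.38, adjusted p 2.81e-07) and FBXW7 (0.36, adjusted p 0.000265), both ubiquitin ligase subunits that bind MYC, rose, and FBXO28, another such subunit, fell (-0.53, adjusted p 4.43e-10). In siSLC25A1 CIP2A, which shields MYC from a phosphatase, rose (0.32, adjusted p 6.89e-05).

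Of 12 tested genes acting on MYC transcription or its mRNA, 4, 6 and 7 were called in siSLC25A1, siACLY and siACO1, with 3 higher and 1 lower, 1 and 5, and 3 and 4, where 19.6%, 36.7% and 37.1% of all genes were called. In siSLC25A1 the 3 higher became 1 without a filter, siControl replicate 1 or 2, or siSLC25A1 replicate 1 or 3, and the 1 lower was lost without siControl replicate 1 or 3 or siSLC25A1 replicate 2 or 3. In siACLY library totals gave 4 higher and 3 lower, and 3 were lower without siControl replicate 1 or siACLY replicate 1. In siACO1 the 4 lower became 2 with library totals and without siControl replicate 1 or 3 or siACO1 replicate 2. IGF2BP3, an RNA-binding protein that stabilises MYC mRNA, rose from 214 ± 1.70 CPM to 243 ± 4.08 in siSLC25A1, 320.0 ± 8.98 in siACLY and 250 ± 19 in siACO1 (SD, n = 3; edgeR adjusted p 0.00396, 2.59e-11 and 0.000207). Its relative IGF2BP2 fell in siACO1 (log2 fold change -0.43, adjusted p 5.62e-10).

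In the parallel network, MLX is a MAX-like factor that pairs with the glucose sensors MLXIP (MondoA) and MLXIPL (ChREBP), and 4 of 5 listed genes were tested. Of these, 1 was higher and 1 lower in siSLC25A1, 1 and 0 in siACLY, and 1 and 1 in siACO1. Of all genes, 10.3% were higher and 9.27% lower in siSLC25A1, 18.4% and 18.3% in siACLY, and 17.8% and 19.3% in siACO1. TXNIP, the best known target of MLXIP and MLXIPL and a brake on glucose uptake, rose from 12.8 ± 1.47 CPM to 35.2 ± 1.61, 35.7 ± 0.990 and 25.3 ± 2.09 in siSLC25A1, siACLY and siACO1 (SD, n = 3; log2 fold changes 1.46, 1.48 and 0.99, edgeR adjusted p 1.22e-14, 3.80e-15 and 3.13e-11). MLXIPL fell in siSLC25A1 (-0.69, adjusted p 4.30e-05) and siACO1 (-1.04, adjusted p 2.26e-08), and was 0.08 in siACLY (adjusted p 0.598). MLX had log2 fold changes of -0.03, -0.01 and 0.07, none called.

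Genes whose log2 CPM ran most closely with that of a member over the 12 libraries are given as a description. The group means of MYC spanned 0.04 on the log2 scale, and the genes nearest to it were ENSG00000226824, PSMC3, RPLP0P6, WDR74 and C11orf68 (Pearson's r 0.79 to 0.82, n = 12 libraries). MYCL had the widest range among the other members, 1.43, and CALCOCO2 (r = 0.96), PARP11 (0.95), ZNF28, USP45 and FAM76B (each 0.94) were nearest to it. The points share library depth and the 4 groups, so they are not independent. The genes were taken as the highest of many, so high values of r follow in part from that choice.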

How the data were processed

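The authors deposited 1 table of raw counts per gene, whole numbers that are not normalized, for 12 libraries of poly(A) RNA, with columns assigned to samples by the names in the labels. The submitters' processing notes name CASAVA, FastQC, Trim Galore, STAR 2.7.0e, DESeq2 and the builds GRCh38 and GRCm39 without roles; the counting tool, annotation and use of strand are not given in the sources used here. Counting without strand could affect genes that overlap on opposite strands, among them MXD3, CDK4, KAT5 and MTHFD2. Other listed genes overlap as much, such as TYMS (46.6% of exon bases), CEBPA (43.4%) and STUB1 (42.4%). MXD3 also overlaps RAB24 on the same strand, and use of strand would not separate these.

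Symbols came from a table of gene names that matched 62700 of the 70116 identifiers. Positions and exon lengths are from GENCODE 29 (GRCh38). Genes were filtered with filterByExpr and tested with edgeR 4.0.16 under R 4.3.3. Its robust quasi-likelihood fit held all 12 libraries in 4 groups, with TMM scaling and 8 residual degrees of freedom, in two-sided tests. The common biological coefficient of variation was 4.89%. In all 6 comparisons were made: each knockdown against siControl, and every pair of knockdowns. Library totals of 24159424 to 43792811 counts set the precision, which is lowest for MYCL. Replicate libraries correlated at 0.991 to 0.994 and none was a copy of another within sampling noise (chi-square per degree of freedom 2.27 to 12.1). The highest values, 11.3 and 12.1, were those of the pairs with siACO1 replicate 3. These values do not show that the libraries were separate cultures. The scripts were tested on simulated data.

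The members and the gene lists were chosen with earlier results of these data known. Named genes are the 10 members, the 3 siRNA targets, for each list and comparison with siControl up to 2 called genes with the largest rise and up to 2 with the largest fall, and the 5 genes of at least 5 CPM closest by Pearson's r to MYC and to the other member with the widest range of group means; the text gives a selection of these. IMP4, MLX and the genes overlapping a named gene were named after their values were seen, and marker genes are those of the marker lists. The motif CACGTG was searched in RefSeq promoter windows. Alternatives tried were median-of-ratios factors, library totals, DESeq2 1.42.0, no filter, at least 10 counts in every library, the replicate number as a block, only the 2 groups compared, each replicate left out, and a minimum absolute log2 fold change of 0.5.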

Additional observations from a re-analysis of the deposited data

How the results depend on the processing

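For single members, the alternatives gave 658 values on the same side of the threshold (uncalled values near 0 could change sign), 24 that lost and 20 that gained a call, and 0 that reversed a called direction. For the other genes named by rule, 1001 values kept their call and 90 lost it. In the order siSLC25A1, siACLY and siACO1 against siControl, then siSLC25A1 against siACLY, siSLC25A1 against siACO1 and siACLY against siACO1, the genes called numbered 3173, 5944, 6008, 5472, 6823 and 6823. Asking also for an absolute log2 fold change of at least 0.5 kept 691, 1851, 1835, 1555, 2454 and 2431 genes, and 1, 1, 3, 1, 2 and 2 members in place of 4, 3, 4, 4, 3 and 2. DESeq2 called 2 members rather than 4 in siACO1. Leaving out 1 library at a time gave 2319 to 2699, 5002 to 5132, 5097 to 6195, 4658 to 4792, 6040 to 6682 and 6017 to 6870 genes, and 3 to 4, 2 to 3, 2 to 5, 3 to 4, 3 to 4 and 2 to 4 members; the cause was not tested. With library totals the share of called genes that were higher was 61.0% in siACLY (50.1% with TMM) and 59.5% in siACO1 (47.9% with TMM), and that of siSLC25A1 against siACLY and against siACO1 was 41.0% and 42.2% (51.8% in both with TMM). The median of all genes moved from 0.01 to 0.05 in siACLY and siACO1. Same-numbered libraries did not deviate together (18 correlations of -0.03 to 0.07), so the numbers were not taken as pairs; with the number as a replicate block 3270, 6038, 6093, 5592, 6893 and 6874 genes and 4, 3, 5, 4, 3 and 2 members were called. Depth limits MYCL, at 22 to 116 counts, and the 3 libraries per group limit every small difference.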
